A study of Mus musculus with 14 samples.

Results

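Mouse embryonic fibroblasts (MEFs) that carry no functional Hsf1 were compared with wild-type (WT) MEFs, both grown alone. The comparison takes the 4 arrays titled as fibroblasts without co-culture, 2 of Hsf1 null MEFs and 2 of WT MEFs, from 14 arrays in all. The other 10 arrays hold D2A1 tumor cells, a breast cancer cell line of the mouse, and fibroblasts sorted from co-culture with them. Cells of every group were kept in medium with 10% serum and profiled after 72 hours. According to the labels, only MEFs that served as partners of profiled tumor cells received mitomycin C, so these 4 arrays are of untreated cells. The labels give no strain, sex, passage or number of embryos for either genotype, and they do not say that replicates A and B were separate cultures. The null and WT cells may therefore differ in more than the Hsf1 gene. The p-values reflect the variation between replicate arrays within the groups of all 14 arrays, which may be technical.

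Hsf1 encodes heat shock factor 1, the transcription factor that drives the heat shock response of vertebrate cells. Under protein-damaging stress it forms trimers, binds heat shock elements, which are inverted repeats of the letters GAA, and raises transcription of chaperone genes. Chaperones such as the HSP70, HSP90 and small heat shock proteins fold new proteins and keep damaged ones from aggregating. Fibroblasts are the main makers of collagen, elastic fibres and growth factors in connective tissue, and the series asked how Hsf1 in fibroblasts bears on neighbouring tumor cells.

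Expression was measured on 1-colour arrays of 59305 spots, and the values are log2 signals from the authors' table, 1 per gene name. The 4 arrays had 60.0% to 61.5% of spots well above background and 0.246% to 5.74% flagged as outliers. Across 25896 tested genes, replicate arrays correlated at 0.9965 in null MEFs and 0.9967 in WT MEFs, and arrays of different genotype at 0.960 to 0.962. Replicates A lay on 1 slide and replicates B on another, so each slide holds both genotypes. Differences below are null minus WT on the log2 scale, given ± SE, with n = 2 arrays per genotype. Each gene's SE uses 1 variance from all 7 groups of the series. It can therefore be wider or narrower than these 4 arrays alone would give. A gene is called where limma's adjusted p is under 0.05, and the number of arrays limits the precision of every value.

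The targeted gene was checked first. Hsf1 had log2 signals of 10.07 and 9.97 in null MEFs, against 12.01 and 11.69 in WT MEFs. The groups did not overlap, and Hsf1 was 3.56-fold lower in null MEFs (-1.83 ± 0.12, limma adjusted p = 1.12e-06). Its signal in null MEFs stayed well above background on both arrays. The only probe lies on chromosome 15 at 76331320 to 76331379 of mm9, per the file headers, and whether that is inside the deleted part is not recorded, so the remaining signal does not measure functional Hsf1.

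The related factors behaved unequally. Hsf2, which acts in development and proteotoxic stress, differed by -0.30 ± 0.14 and was not called (adjusted p = 0.146). Hsf4, the heat shock factor of the lens, had signals of 5.95 and 6.06 in null MEFs, against 7.86 and 8.15 in WT MEFs. It was 4.01-fold lower in null MEFs (-2.00 ± 0.17, adjusted p = 6.56e-06).

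**Figure D1:**
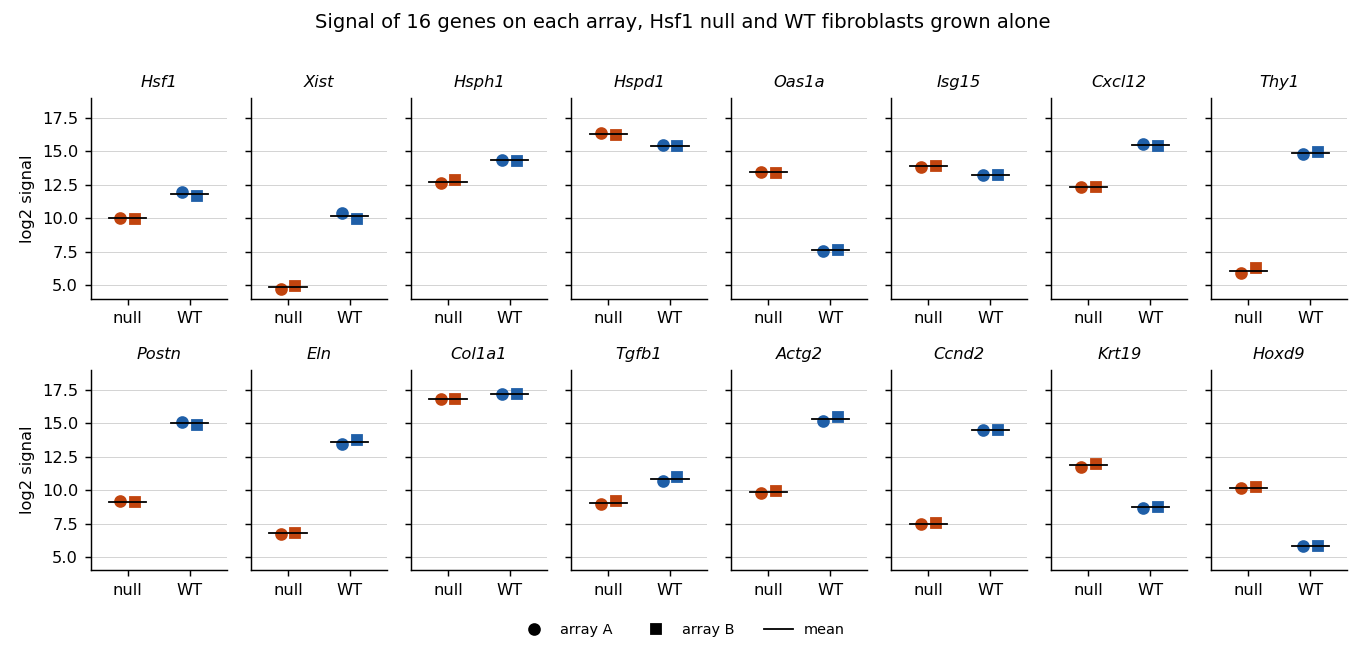
Log2 signal (vertical axis) of 16 genes on each of the 4 arrays, null MEFs left and WT MEFs right, with circles for array A, squares for array B and a line for the group mean. Replicates sit close together and the genotypes are apart in each gene: Oas1a lies at 13.44 and 13.43 in null MEFs and at 7.59 and 7.66 in WT MEFs, whereas Thy1 lies at 5.91 and 6.28 in null MEFs and at 14.79 and 14.93 in WT MEFs.

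Across the genome, 8746 of 25896 tested genes (33.8%) were called. Of these, 4633 (17.9% of tested genes) were higher in null MEFs and 4113 (15.9%) were lower. At least 2-fold changes were called for 1589 higher genes (6.14%) and 1822 lower genes (7.04%), and at least 8-fold changes for 197 (0.761%) and 334 (1.29%). All 8746 called genes had the same sign on both slides, but the calls rest on these same values, so this is no separate support. The median difference of all tested genes was 0.03 in the table as scaled by the authors. The counts of each list below stand against a share of 33.8% of all genes. These are bulk RNA samples, in which fewer cells of a type and less RNA per cell cannot be told apart.

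**Figure D2:**
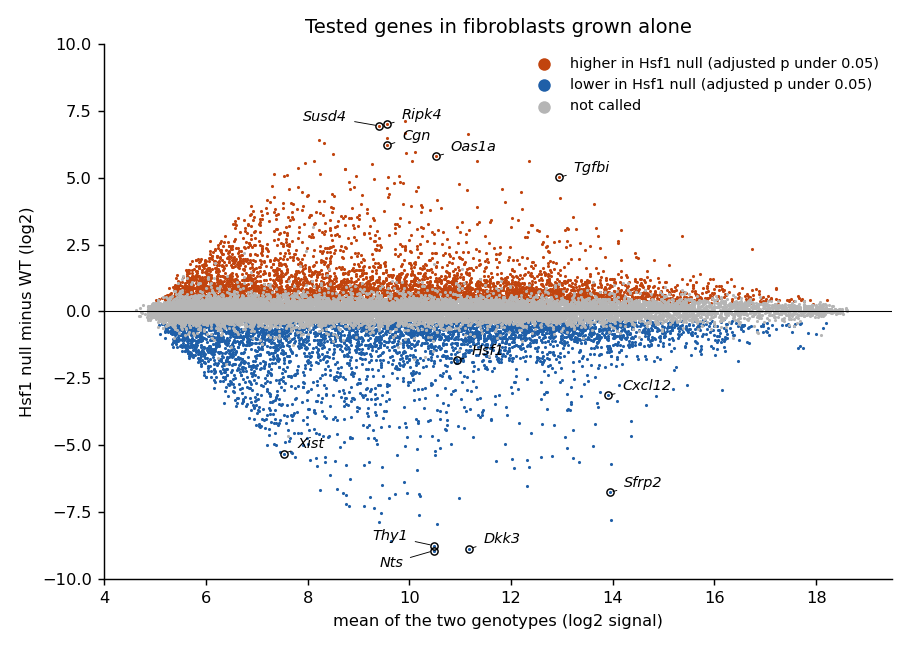
Null minus WT difference (vertical axis, log2) against the mean log2 signal of both genotypes (horizontal axis) for each of 25896 tested genes, with called genes in orange where higher in null MEFs and in blue where lower. Called genes lie on both sides of 0, and the labelled genes Dkk3 (-8.88) and Susd4 (6.94) lie near the 2 ends.

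Heat shock genes did not move together. Of 27 tested cytosolic heat shock genes, 5 were higher and 5 lower in null MEFs, 37.0% called, with a median of 0.11. Hsph1, which encodes the nucleotide exchange factor HSP110, fell the most. It had signals of 12.66 and 12.83 in null MEFs, against 14.39 and 14.30 in WT MEFs, and was 3.03-fold lower (-1.60 ± 0.17, adjusted p = 2.73e-05). The other members that fell did so by less: the stress-inducible HSP70 gene Hspa1a (-0.83 ± 0.27, adjusted p = 0.0347), the small heat shock gene Hspb1 (-0.75 ± 0.18), the J-domain co-chaperone Dnajb1 (-0.66 ± 0.20) and Hspa2 (-0.51 ± 0.16). Hspa1a has a near-identical copy, Hspa1b, that was not measured apart here, so its signal may hold both.

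The members that rose were Hspb2 (1.42 ± 0.17) and Hspb8 (1.18 ± 0.11), small heat shock proteins of muscle and of autophagy, the HSP90 co-chaperones Fkbp4 (0.80 ± 0.12) and Ppid (0.80 ± 0.10), and Hspa4 (0.44 ± 0.15). Hspb8 had signals of 13.90 and 13.79 in null MEFs, against 12.59 and 12.73 in WT MEFs. The HSP70 gene Hspa8 (0.21 ± 0.14) and the HSP90 genes Hsp90aa1 (-0.20 ± 0.13) and Hsp90ab1 (0.10 ± 0.13) were not called. The summed signal of the list was 19.52 and 19.53 (log2) in null MEFs, against 19.51 and 19.55 in WT MEFs, and these ranges overlap. Leaving out any 1 of the 4 arrays left 2 or 3 members called lower. In fits of the 4 arrays alone and of the 8 fibroblast arrays, limma gave Hspa1a adjusted p = 0.0866 and 0.0604 and Hspa4 adjusted p = 0.121 and 0.0656, neither called. In MEFs sorted from co-culture, on other arrays, Hsph1 was lower again (-1.30), and the other 4 lower members were not called there.

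Chaperonins and mitochondrial chaperones showed 3 of 14 higher and 1 lower, 28.6% called, with a median of 0.22. Hspd1, the mitochondrial chaperonin HSP60, had signals of 16.34 and 16.23 in null MEFs, against 15.45 and 15.41 in WT MEFs. It was 1.81-fold higher in null MEFs (0.86 ± 0.12, adjusted p = 0.000309). Its partner Hspe1 had 13.57 and 12.33 in null MEFs and 13.08 and 12.12 in WT MEFs, and its groups overlapped (0.35 ± 0.59, not called). Hspa9, the mitochondrial HSP70, was 2.76-fold lower in null MEFs (-1.46 ± 0.16). Of the cytosolic chaperonin subunits that fold actin and tubulin, only Cct3 was called (0.27 ± 0.09). Leaving out any 1 of the 4 arrays left 1 or 2 members called higher, and Cct3 lost its call each time.

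Heat shock elements were looked for in RefSeq promoter windows of build GRCm38.p6, which run from 250 bases before to 50 bases after each annotated start. The letters GAANNTTCNNGAA, on either strand, occur in the windows of 0.662% of 27025 genes. Among the list members with a window they occurred in 2 of 21 cytosolic heat shock genes, Hsph1 and Chordc1, and in 2 of 12 chaperonins, Hspd1 and Hspe1. Only this exact form was searched, and only in these windows, so a member without a match may still have heat shock elements. The sequences below are the windows' matches for the member that fell most and for the pair that shares 1 promoter, 5′ to 3′ with the match in capitals. The Hsph1 match starts 15 bases after an annotated start (chr5:149636280-149636308, minus strand), and the Hspd1 match, which holds 2 overlapping copies, ends 126 bases before the start (chr1:55088039-55088096, minus strand).
Hsph1: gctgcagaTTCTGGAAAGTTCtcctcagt
Hspd1 and Hspe1: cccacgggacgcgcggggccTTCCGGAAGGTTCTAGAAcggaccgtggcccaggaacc
A window with these letters thus belonged to a gene that fell (Hsph1), a gene that rose (Hspd1) and genes that were not called (Hspe1 and Chordc1, which differed by 0.01 ± 0.12).

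The members of the endoplasmic reticulum list that were called were all lower in null MEFs. This compartment folds secreted proteins, and when it is overloaded or amino acids are short, the factor ATF4 raises a set of stress genes. Of 22 members tested, 0 were higher and 10 lower in null MEFs, 45.5% called, with a median of -0.42. Trib3, a pseudokinase downstream of ATF4, had signals of 10.76 and 10.66 in null MEFs, against 14.996 and 14.93 in WT MEFs (-4.25 ± 0.19, adjusted p = 9.38e-08). Chac1, a glutathione-degrading enzyme, was 9.03-fold lower in null MEFs (-3.17 ± 0.15) and Ddit3, which encodes the factor CHOP, 4.06-fold lower (-2.02 ± 0.20).

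Atf4 itself was lower in null MEFs (-1.30 ± 0.12), and so were the asparagine synthetase gene Asns (-1.13 ± 0.14) and Herpud1, which acts in disposal of misfolded proteins (-1.66 ± 0.16). Pdia6, a disulfide isomerase, differed by -1.53 ± 0.12 and the collagen chaperone Serpinh1 by -1.004 ± 0.13. Pdia6 was at -0.49 or -0.53 and not called when the scanner signals were used in place of the authors' table. The central chaperones of the compartment were not called: Hspa5 (BiP) differed by -0.18 ± 0.13, Hsp90b1 by -0.26 and Calr by -0.45. All 10 lower members were lower again in co-cultured MEFs, where 13 of 22 were called lower and 0 higher. The letters TGATGCAAT, an exact form of the C/EBP-ATF composite site present in 0.222% of genes' windows, were in the windows of 0 of 20 members. At so low a share 0 was likely in any list of this size. Other forms of the site were not searched, so this does not tell whether the members have such sites.

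Interferon-stimulated genes were almost uniformly higher in null MEFs. These genes are induced by type I interferon through STAT and IRF factors, and their products block viral replication, sense nucleic acids or present antigens. Of 42 members tested, 39 were higher and 1 lower (Isg20), 95.2% called, with a median of 2.06. Oas1a, a double-stranded RNA sensor, had signals of 13.44 and 13.43 in null MEFs, against 7.59 and 7.66 in WT MEFs. It was 56.1-fold higher (5.81 ± 0.11, adjusted p = 1.14e-09), though its near relatives on the same chromosome may share its probes.

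Oas2 had 11.46 and 11.52 in null MEFs, against 6.43 and 6.40 in WT MEFs (33.7-fold higher), and Usp18, the protease that removes ISG15 and damps interferon signalling, was 28.4-fold higher (4.83 ± 0.21). The guanylate-binding protein gene Gbp3 was 25.4-fold higher in null MEFs (4.67 ± 0.16) and Ifi27l2a 16.2-fold (4.02 ± 0.15). Rsad2, the antiviral enzyme viperin, had 9.83 and 10.03 in null MEFs and was not well above background in WT MEFs, at least 24.0-fold higher. For Oas2, Usp18, Gbp3, Ifi27l2a and Rsad2, all taken from the called genes, the arrays of each genotype lay far closer to each other than to the other genotype. This did not hold for B2m, with 16.70 and 16.46 in null MEFs and 15.46 and 16.12 in WT MEFs.

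The regulators of the response rose by less than its strongest targets. Irf7, which amplifies interferon production, had 10.42 and 10.51 in null MEFs, against 7.1993 and 7.52 in WT MEFs (3.11 ± 0.29). Irf9, the DNA-binding subunit of the ISGF3 complex, was higher by 1.52 ± 0.12, and Stat2 was not called. Antigen presentation genes were also higher in null MEFs: the immunoproteasome subunit Psmb8 by 1.79 ± 0.23, the peptide transporter Tap1 by 0.95 ± 0.20 and B2m by 0.79 ± 0.22. B2m was not called in a fit of the 4 arrays alone (limma adjusted p = 0.0561). Isg15, the ubiquitin-like modifier, had 13.82 and 13.94 in null MEFs against 13.28 and 13.22 in WT MEFs (0.63 ± 0.14). The exception, the nuclease gene Isg20, was 1.48-fold lower in null MEFs (-0.57 ± 0.13) and lost its call without array A of null MEFs or array B of WT MEFs.

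Interferon-stimulated response elements bind these factors, and the letters GAAANNGAAA, on either strand, occur in the promoter windows of 3.99% of genes. Among 30 members with a window, 17 held them: 15 of 27 higher members, both of the 2 that were not called and not Isg20. Examples from genes that rose strongly (Oas1a, Gbp3, Ifit1) and weakly (Isg15) are given 5′ to 3′ with the matches in capitals, overlapping where they run together. They lie on the minus strand for Oas1a (chr5:120907526-120907565) and Isg15 (chr4:156200855-156200916) and on the plus strand for Gbp3 (chr3:142559979-142560034) and Ifit1 (chr19:34640765-34640833), RefSeq GRCm38.p6.
Oas1a: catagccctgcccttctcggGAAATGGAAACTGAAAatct
Gbp3: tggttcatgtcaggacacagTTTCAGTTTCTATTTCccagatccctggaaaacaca
Ifit1: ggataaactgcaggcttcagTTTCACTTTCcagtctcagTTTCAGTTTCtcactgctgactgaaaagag
Isg15: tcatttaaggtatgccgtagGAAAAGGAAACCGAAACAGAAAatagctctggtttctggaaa
Isg15, with 3 overlapping matches, differed by 0.63, and Ifit1, with 2 separate matches, by 3.19, so the number of matches did not follow the size of the difference among these 4.

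Chemokines and inflammatory cytokines split. Of 34 listed, 29 were tested, and 10 were higher and 11 lower in null MEFs, 72.4% of those tested called, with a median of 0.06. The interferon-inducible chemokine Cxcl10 had 13.03 and 12.66 in null MEFs, against 10.20 and 10.38 in WT MEFs (5.88-fold higher), and Ccl5, which attracts T cells, was 5.35-fold higher (2.42 ± 0.27). Cxcl16 was higher by 1.78 ± 0.22. Cxcl12, the stromal ligand of the receptor Cxcr4, had 12.33 and 12.32 in null MEFs, against 15.55 and 15.40 in WT MEFs, 8.84-fold lower (-3.14 ± 0.17, adjusted p = 2.66e-07). Cxcr4 itself was not well above background in WT MEFs and at least 2.53-fold higher in null MEFs, where its signals were 6.36 and 6.47.

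The neutrophil chemokine Cxcl5 had 6.25 and 6.35 in null MEFs, against 13.12 and 13.16 in WT MEFs, 115-fold lower. The adhesion molecule Vcam1 was 4.44-fold lower in null MEFs (-2.15 ± 0.12) and the macrophage growth factor Csf1 3.06-fold lower (-1.61 ± 0.09). Il1rn, the interleukin-1 receptor antagonist, was not well above background in null MEFs and lower there (adjusted p = 2.29e-06). Ccl2 (-0.08 ± 0.41) and Il6 (-1.27 ± 0.89) were not called. For Il6 the signals were 7.08 and 7.06 in null MEFs against 8.35 and 8.32 in WT MEFs, apart on these arrays but with a wide SE from the other groups.

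**Figure D3:**
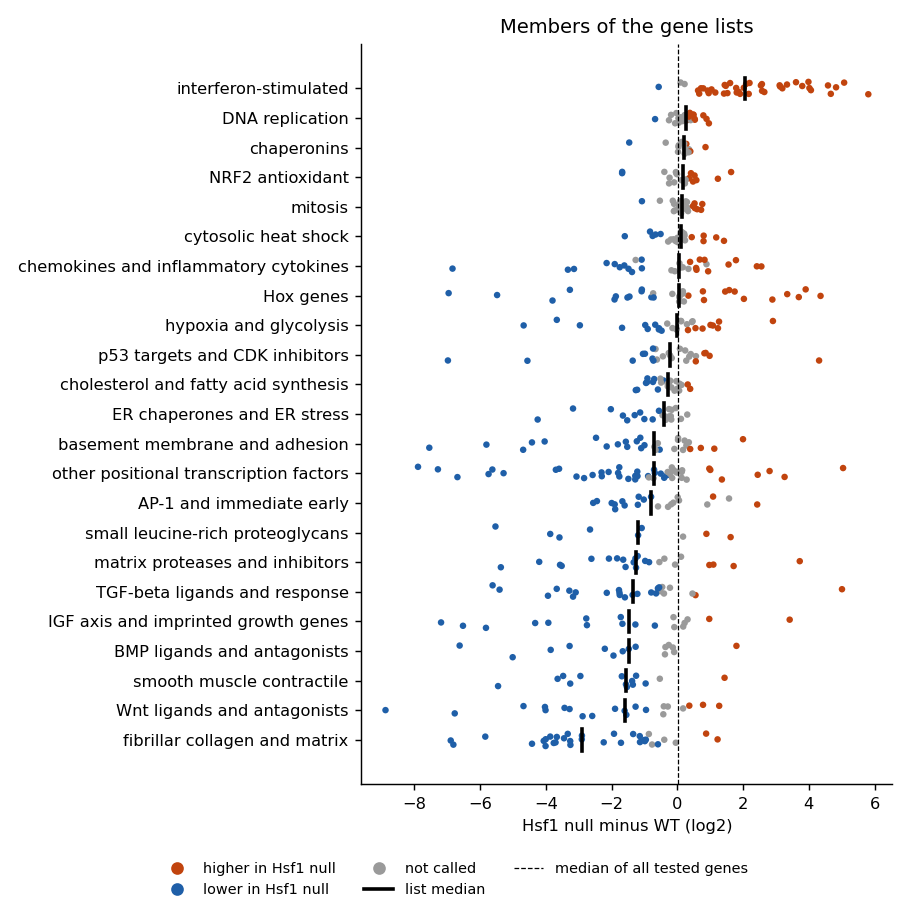
Null minus WT difference (horizontal axis, log2) of each tested member of the pathway lists (rows), orange where called higher in null MEFs, blue where called lower, grey where not called, with list medians as black bars and the median of all tested genes (0.03) as a dashed line. The interferon-stimulated list lies at the top with a median of 2.06, and fibrillar collagen and matrix genes lie at the bottom with a median of -2.90.

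Matrix genes formed the list with the lowest median. Of 33 tested fibrillar collagen and matrix genes, 27 were lower in null MEFs and 2 higher, 87.9% called, with a median of -2.90. Eln, the elastin gene, had 6.75 and 6.80 in null MEFs, against 13.44 and 13.73 in WT MEFs (-6.81 ± 0.68, adjusted p = 2.06e-05). The fibrillins that scaffold elastic fibres fell with it: Fbn1 differed by -3.71 ± 0.32 and Fbn2 by -6.89 ± 0.76. So did Fbln2 (-4.42 ± 0.14), Fbln5 (-3.76) and the microfibril proteins Mfap4 (-3.25) and Mfap5 (-3.45 ± 0.17).

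Postn, which encodes the matricellular protein periostin, had 9.15 and 9.13 in null MEFs, against 15.07 and 14.89 in WT MEFs, 57.4-fold lower (-5.84 ± 0.82). Chains of collagens V, VI, VIII, XI and XII were lower in null MEFs: Col5a3 (-4.07 ± 0.19), Col6a1 (-2.90 ± 0.27), Col8a1 (-4.01 ± 0.26), Col11a1 (-4.01 ± 0.34) and Col12a1 (-3.87 ± 0.48). The cross-linking enzyme gene Lox differed by -2.91 ± 0.37 and fibronectin, Fn1, by -1.14 ± 0.15.

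Col1a1, Col1a2 and Col3a1, the chains of type I and III collagen, did not pass in the fit over all groups. Col1a1 had 16.77 and 16.77 in null MEFs, against 17.19 and 17.14 in WT MEFs (-0.40 ± 0.34, adjusted p = 0.448). Col1a2 differed by -0.87 ± 0.39 and Col3a1 by -0.77 ± 0.49, with groups that did not overlap. Fitted on the 4 arrays of MEFs grown alone, these 3 were called lower, with limma adjusted p = 0.0241 for Col1a1, 0.00226 for Col1a2 and 0.0057 for Col3a1, and 30 of 33 members were. Tnc (-0.05 ± 0.29) was called in neither fit, and the members that rose were Col14a1 (1.22 ± 0.15) and Spon2 (0.88 ± 0.18). In co-cultured MEFs 24 of the 27 lower members were lower again, with a list median of -1.61.

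Basement membrane and adhesion genes were mixed: 4 of 29 were higher and 15 lower, 65.5% called, with a median of -0.70. Col4a5, a collagen IV chain, had 5.76 and 5.58 in null MEFs, against 13.17 and 13.26 in WT MEFs (-7.55 ± 0.15). Itga11, a collagen-binding integrin of fibroblasts, was 56.1-fold lower in null MEFs and the laminin chain Lama4 16.4-fold lower. Lama5, a laminin chain of epithelial basement membranes, ran the other way, with 15.42 and 15.57 in null MEFs and 13.45 and 13.54 in WT MEFs (2.00 ± 0.14). Col4a2 was higher by 0.71 ± 0.16, while Col4a1 was lower in null MEFs (-0.54 ± 0.18).

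Among 9 tested of 11 small leucine-rich proteoglycans, which bind collagen fibrils, 6 were lower and 2 higher in null MEFs, 88.9% called. Bgn (biglycan) had 9.28 and 9.21 in null MEFs, against 14.78 and 14.78 in WT MEFs (-5.53 ± 0.44). Dcn (decorin) was higher in null MEFs, with 12.38 and 12.20 against 10.74 and 10.59 in WT MEFs (1.62 ± 0.32). Lum was higher by 0.88 ± 0.14 when cells grew alone.

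Matrix proteases and their inhibitors had 15 of 23 tested (25 listed) lower and 4 higher, 82.6% called, with a median of -1.26. Mmp2, a gelatinase of fibroblasts, had 7.96 and 7.68 in null MEFs, against 13.22 and 13.16 in WT MEFs, 41.4-fold lower (-5.37 ± 0.33). The metalloproteinase inhibitor Timp3 was 11.5-fold lower in null MEFs. The stromelysins and collagenase were the members that rose: Mmp3 had 9.85 and 10.07 in null MEFs, against 8.15 and 8.36 in WT MEFs (1.71 ± 0.11), and Mmp13, not well above background in WT MEFs, was at least 13.2-fold higher. Mmp9 (0.97 ± 0.22) was also higher, and so was Mmp10, at least 2.14-fold, since it was not well above background in WT MEFs.

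Most genes of the TGF-beta list were lower in null MEFs. TGF-beta is secreted in a latent complex held by LTBP proteins and, once freed, signals through SMAD factors to raise matrix and contractile genes in fibroblasts. Of 25 members tested, 18 were lower and 2 higher, 80.0% called, with a median of -1.36. Among ligands, Tgfb1 had 8.93 and 9.19 in null MEFs, against 10.66 and 10.97 in WT MEFs, 3.39-fold lower (-1.76 ± 0.18, adjusted p = 2.06e-05). Tgfb3 was 3.42-fold lower in null MEFs (-1.78 ± 0.21), and Tgfb2 was not called (-0.46 ± 0.26, adjusted p = 0.222). Inhba, the activin A subunit, had 8.77 and 8.66 in null MEFs, against 12.41 and 12.35 in WT MEFs (-3.67 ± 0.11).

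Of the latency proteins, Ltbp2 differed by -5.62 ± 0.20, Ltbp1 by -3.94 ± 0.19 and Ltbp4 by -1.75. Ltbp3 was 1.47-fold higher in null MEFs, a call that was lost without any 1 of the 4 arrays. The type II receptor Tgfbr2 was lower in null MEFs (-1.22), whereas Tgfbr1 was not called (-0.22). Feedback inhibitors and targets were lower too: Pmepa1 (-3.29 ± 0.16), Smad7 (-1.36 ± 0.44) and Ctgf, a matricellular target (-3.17 ± 0.25). Smad7 lost its call in fits of the 4 arrays alone (limma adjusted p = 0.0608) and of the 8 fibroblast arrays (0.0702). The opposite case was Tgfbi, a TGF-beta-induced matrix protein, with 15.44 and 15.45 in null MEFs and 10.32 and 10.55 in WT MEFs, 32.2-fold higher (5.01 ± 0.31).

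Smooth muscle contractile genes, which fibroblasts express when they contract matrix, had 12 of 14 tested (16 listed) lower and 1 higher, 92.9% called, with a median of -1.55. Actg2, the enteric smooth muscle actin, had 9.76 and 9.95 in null MEFs, against 15.16 and 15.46 in WT MEFs, 43.9-fold lower. Calponin, Cnn1, was 11.1-fold lower in null MEFs, Tagln 7.73-fold and the myosin kinase gene Mylk 9.58-fold. Acta2, the usual marker of contractile fibroblasts, had 17.00 and 16.93 in null MEFs, against 18.31 and 18.32 in WT MEFs (-1.35 ± 0.32, adjusted p = 0.00705). Myocd, the co-activator of serum response factor, was not well above background in null MEFs and at least 12.5-fold lower. The exception was Des (1.44 ± 0.17). The CArG box, which serum response factor binds, occurs in 1.81% of genes' windows and was in 3 of 12 here: Cnn2, Myl9 and Vcl, which were all lower.

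Wnt ligands and antagonists had 14 of 21 tested (25 listed) lower and 3 higher, 81.0% called, with a median of -1.60. The secreted antagonist Dkk3 had 6.72 and 6.73 in null MEFs, against 15.55 and 15.67 in WT MEFs (-8.88 ± 1.18, adjusted p = 0.000171). The antagonist Sfrp2 had 10.41 and 10.69 in null MEFs, against 17.29 and 17.35 in WT MEFs (-6.77 ± 1.34). The Wnt agonist Rspo1 was 25.7-fold lower in null MEFs and the non-canonical ligand Wnt5a 3.72-fold lower. Wnt5b (0.78) and Wnt16 (0.36) were higher, and so was the antagonist Frzb, at least 2.42-fold, since it was not well above background in WT MEFs. Wnt5b lost its call without any 1 of the 4 arrays and Wnt16 without either null array or array B of WT MEFs. Wnt16 was also not called in a fit of the 4 arrays alone (limma adjusted p = 0.0756).

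BMP ligands and antagonists had 9 of 15 tested (20 listed) lower and 1 higher, 66.7% called, with a median of -1.48. Grem1, a BMP antagonist of stromal cells, was at least 98.6-fold lower in null MEFs, where it was not above background. Gdf10 was at least 29.6-fold lower and follistatin, Fst, differed by -3.28. Bmp4 was lower in null MEFs (-1.94 ± 0.19), and Bmp7 was the member that rose, with 7.46 and 7.80 in null MEFs and 5.83 and 5.84 in WT MEFs (1.80 ± 0.22).

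Insulin-like growth factor and imprinted growth genes had 11 of 18 tested (22 listed) lower and 2 higher, 72.2% called, with a median of -1.47. Mest, expressed from the paternal copy, had 5.16 and 5.15 in null MEFs, against 12.32 and 12.37 in WT MEFs (-7.19 ± 0.76), and was well above background on 1 of the null arrays. Dlk1, an inhibitor of adipocyte differentiation, was 56.6-fold lower in null MEFs and the non-coding RNA H19 15.2-fold lower. Igfbp2 differed by -6.52 ± 0.71, Igf1 by -2.75 ± 0.18 and Igf2, at least 3.30-fold lower, was not above background in null MEFs. Cdkn1c, an imprinted inhibitor of the cell cycle, had 13.999 and 13.70 in null MEFs, against 10.55 and 10.32 in WT MEFs (3.42 ± 0.31).

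Hox genes differed by cluster. These factors, arranged in 4 clusters, record position along the body axis and the limbs, and cultured fibroblasts retain the Hox pattern of their site of origin. Over 33 tested of 38 listed, 12 were higher and 12 lower, 72.7% called, with a median of 0.06. All 7 tested HoxD genes were higher in null MEFs, from 1.46 for Hoxd3, which was not well above background in WT MEFs, to 4.36 for Hoxd9. Hoxd9 had 10.16 and 10.21 in null MEFs, against 5.80 and 5.86 in WT MEFs. All 7 tested HoxC genes were lower, from -0.72 for Hoxc11, which was not well above background in null MEFs, to -6.96 for Hoxc9. Hoxc9 had 5.63 and 5.86 in null MEFs, where 1 array was above background, and 12.55 and 12.85 in WT MEFs.

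In the HoxB cluster 4 of 8 were lower and 0 higher, with Hoxb9 at least 44.8-fold lower while Hoxb3 (0.06), Hoxb4 (-0.15) and Hoxb5 (0.06) were not called. In the HoxA cluster 5 of 11 were higher and 1 lower, Hoxa9 by 1.74 ± 0.21 and Hoxa10 by 1.58. Within paralog group 9 the 4 clusters thus ran in opposite directions, higher for Hoxa9 and Hoxd9 and lower for Hoxb9 and Hoxc9. In co-cultured MEFs 10 of the 12 higher and 10 of the 12 lower Hox genes were called in the same direction and 2 in the opposite one.

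**Figure D4:**
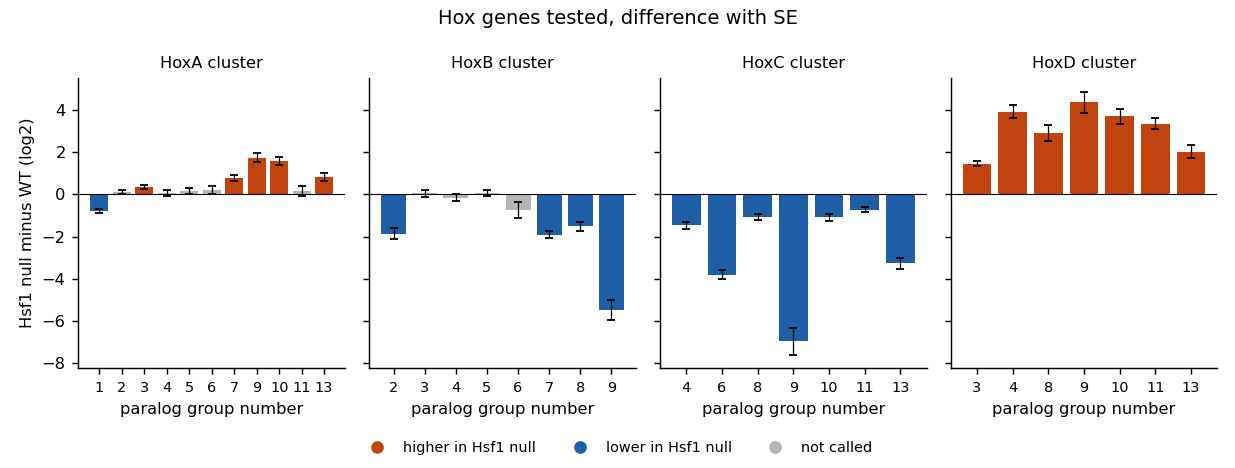
Null minus WT difference (vertical axis, log2) with SE for each tested Hox gene, by cluster and paralog number, orange where called higher in null MEFs, blue where called lower and grey where not called. All 7 HoxD bars point up and all 7 HoxC bars point down.

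Other factors of limb, face and trunk patterning had 28 of 49 tested (53 listed) lower and 7 higher, 71.4% called, with a median of -0.72. Pitx1, which specifies the hindlimb, had 5.4009 and 5.51 in null MEFs, against 13.43 and 13.26 in WT MEFs, at least 237-fold lower since it was not above background in null MEFs. Tbx4, expressed in the hindlimb, was at least 103-fold lower in null MEFs. Tbx5, expressed in the forelimb, ran the other way, with 12.27 and 11.94 in null MEFs and 7.01 and 7.11 in WT MEFs (5.04 ± 0.39). The factors of limb bud mesenchyme Msx2 (3.26 ± 0.21) and Lhx9 (2.44 ± 0.14) and the heart and gut factor Gata4 (2.81 ± 0.16) were also higher.

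Alx1, a factor of craniofacial mesenchyme, was at least 156-fold lower in null MEFs and Meis1, a Hox cofactor, at least 49.5-fold lower. Tbx3 differed by -5.74 ± 0.14 and Pax3, a factor of neural crest and muscle progenitors, by -5.29 ± 0.33. Prrx1, a mesenchymal homeobox gene, had 8.55 and 8.44 in null MEFs, against 12.19 and 11.998 in WT MEFs (-3.60 ± 0.18). Factors that were not called included Tbx15 (0.28), Lhx2 (-0.02), Meis2 (0.13) and Six2 (0.15). A difference in where the cells of each genotype came from in the embryo and an effect of the Hsf1 genotype cannot be told apart in this design.

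Proliferation genes differed by less than 2-fold, apart from Kif20a and the D-type cyclins. Of 24 DNA replication genes, 10 were higher and 1 lower in null MEFs, 45.8% called, with a median of 0.26, and the members lay between -0.68 for Rrm2 and 0.96 for Mcm3. Without any 1 array, 4 to 6 members were called higher (4 or 5 on scanner signals), and Rrm2 lost its call without array A of null or array B of WT MEFs. Of 24 mitosis genes, 6 were higher and 1 lower, 29.2% called, with Kif20a at -1.08. On scanner signals, 2 mitosis genes were called higher after 75th-percentile scaling and 4 after normexp and quantile normalization. Mki67, the proliferation marker, had 15.36 and 15.34 in null MEFs, against 15.28 and 15.25 in WT MEFs (0.09 ± 0.12, not called). Ccnd1 had 10.15 and 10.06 in null MEFs, against 14.74 and 14.60 in WT MEFs (-4.56 ± 0.10), and Ccnd2 had 7.45 and 7.51 in null MEFs, against 14.46 and 14.46 in WT MEFs (-6.98 ± 0.46).

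Of 25 p53 targets and inhibitors of cyclin-dependent kinases, 5 were higher and 8 lower, 52.0% called. Perp, a p53 target in cell junctions, had 10.63 and 10.73 in null MEFs, against 6.28 and 6.46 in WT MEFs (4.31 ± 0.18). Trp53 was 1.97-fold higher in null MEFs and Cdkn1a (p21) 2.07-fold lower, and the tumor suppressor locus Cdkn2a was not called (0.36 ± 0.15). Without array B of null MEFs or array A of WT MEFs, 3 members were called higher.

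Metabolic lists were mixed. Hypoxia and glycolysis genes had 8 of 27 higher and 10 lower, 66.7% called, with Adm (-4.68 ± 0.39) and the carbonic anhydrase Car9 (-3.67 ± 0.16) at one end and Aldoc (2.91 ± 0.17) at the other, while Ldha (-0.02) and Pgk1 (0.12) were not called. Without array A of WT MEFs, 5 hypoxia genes were called higher. Cholesterol and fatty acid synthesis genes had 9 of 25 lower and 2 higher, 44.0% called, with Mvk (-1.22) and Sc4mol (-1.26) lowest. Without any 1 array, 0 or 1 of these genes was called higher. NRF2 antioxidant genes had 7 of 20 higher and 2 lower, 45.0% called, with Gstm1 at 1.64 ± 0.12 and Hmox1 at -1.68 ± 0.12, and 3 or 4 were called higher without any 1 array (2 or 3 on scanner signals).

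Immediate early genes had 11 of 21 lower and 2 higher, 61.9% called, with a median of -0.80. Klf2 was 5.90-fold lower in null MEFs, Dusp6, a feedback inhibitor of ERK, 5.45-fold and Fosl1 3.75-fold. Myc was the member that rose clearly, with 13.70 and 14.16 in null MEFs and 11.18 and 11.81 in WT MEFs (2.43 ± 0.26). Atf3 (1.09 ± 0.35) lost its call without any 1 array. Fos itself was not called (-0.59 ± 1.30).

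Genes above background on all 4 arrays were ranked by their difference, and those with the greatest rise in null MEFs had varied roles. Ripk4, a kinase of keratinocyte differentiation, had 12.92 and 13.19 in null MEFs, against 5.83 and 6.29 in WT MEFs (6.998 ± 0.38, adjusted p = 3.05e-07). The array name ENSMUST00000113743, which was matched to no current gene symbol, differed by 7.13. Susd4, a complement regulator, was 122-fold higher in null MEFs. F11r, which encodes junctional adhesion molecule A, had 14.35 and 14.58 in null MEFs, against 7.65 and 8.01 in WT MEFs (6.64 ± 0.23), Cgn, the cingulin gene, differed by 6.22 ± 0.21 and Lsr by 5.95 ± 0.38.

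Pgam2, the muscle phosphoglycerate mutase, was 102-fold higher in null MEFs, the planar polarity cadherin Celsr1 48.8-fold and the transcriptional co-regulator Cited1 48.9-fold. Selenbp1 (5.63), Fam174b (5.92), Cyb561 (5.53) and the prostaglandin D synthase Ptgds (5.33) completed the top 15 with Oas1a and the array name BC021767 (6.47). From below background in WT MEFs, the interferon lambda receptor Il28ra was at least 85.6-fold higher in null MEFs, the epithelial transcription factor Grhl3 at least 78.4-fold and the pyrimidine-degrading enzyme gene Dpyd at least 41.3-fold. In all, 386 of 25896 tested genes were called higher in null MEFs while well above background on both null arrays and on neither WT array.

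At the other end, Nts, the neurotensin precursor, had 5.90 and 6.10 in null MEFs, against 14.99 and 14.91 in WT MEFs (-8.95 ± 1.06, adjusted p = 7.2e-05). Thy1, a surface glycoprotein used to mark fibroblasts, had 5.91 and 6.28 in null MEFs, against 14.79 and 14.93 in WT MEFs (-8.76 ± 1.0982). Penk, the proenkephalin gene, had 10.12 and 10.03 in null MEFs and 17.92 and 17.80 in WT MEFs (-7.78 ± 1.21). Their SEs were wide, since each takes in the spread of all 7 groups. Arrays A and B of co-cultured null MEFs lay far apart for these genes: Nts 10.57 and 5.81, Thy1 10.48 and 5.61, Penk 15.01 and 9.62. The 2 genotypes grown alone were far apart and did not overlap.

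Msmp (-7.95), Cxcl15 (-7.62), the membrane raft protein gene Rftn1 (-6.997) and Slc22a17 (-6.80) were also among the 15 lowest. From WT signals well above background to none in null MEFs, Vat1l was at least 380-fold lower, the axon guidance ligand Slit3 at least 117-fold and the protocadherin Pcdh19 at least 110-fold. In all, 405 of 25896 tested genes were called lower in null MEFs while well above background on both WT arrays and on neither null array.

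Markers of other cell types were set beside these differences. Of 19 fibroblast markers, 12 were lower and 2 higher, 73.7% called, with a median of -0.92 and all 19 above background in both genotypes. The receptor Pdgfrb differed by -3.59 ± 0.16 and Pdgfra by -1.07, while Vim (-0.89) and S100a4 (-0.92) were lower by less. The summed signal of the list was 19.30 and 19.34 (log2) in null MEFs, against 20.33 and 20.24 in WT MEFs. The members called higher in null MEFs were Dcn (1.62 ± 0.32) and Lum (0.88 ± 0.14). Thy1 fell the most of the list, with 5.91 and 6.28 in null MEFs against 14.79 and 14.93 in WT MEFs. The labelled cell type thus had its markers above background in both groups. Signal above background does not by itself tell cell types apart here. Tumor cells grown alone averaged 14.06 for Fbln2, but 5.36 for Thy1.

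Of 17 epithelial markers tested, 5 were higher and 5 lower, 58.8% called, with a median of -0.07, and 3 were called higher without array A of WT MEFs. Krt19, a simple epithelial keratin, had 11.70 and 11.98 in null MEFs, against 8.65 and 8.77 in WT MEFs (3.13 ± 0.27), and the summed signal of the list was 12.28 and 12.49 (log2) in null MEFs, against 11.77 and 11.87 in WT MEFs. The defining adhesion genes Epcam and Ocln were not tested, being near background in every group, and Cdh1, at 5.59 and 5.67 in null MEFs and 5.06 and 5.19 in WT MEFs, differed by 0.50 ± 0.11 and was above background on 1 of the WT arrays. The members called lower in null MEFs were the desmosome genes Dsp (at least 23.3-fold) and Pkp1 (at least 2.05-fold), the tight junction gene Cldn7 (-1.12 ± 0.14), the basal epithelial factor Trp63 (-1.24 ± 0.13) and the splicing factor Esrp2 (-0.57). The part of epithelial cells in the differences of F11r, Cgn and Lsr was not tested.

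Markers of macrophages and blood (2 of 10 higher, 2 lower), endothelium (2 of 7 higher, 3 lower), skeletal muscle (2 of 9 higher, 2 lower), nervous tissue (1 of 9 higher, 2 lower) and fat (1 of 5 higher, 1 lower) gave no shared direction. Cartilage and bone markers had 6 of 11 lower and 1 higher. Of these lists, 1 macrophage member was called higher without any 1 array, and 0 cartilage members were without either null array or array A of WT MEFs. The endothelial genes Cdh5 and Tie1 and the muscle genes Myf5 and Pax7 were not tested, being near background.

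Xist, the RNA that coats the inactive X chromosome and is expressed in cells with more than 1 X, separated the genotypes. It had 4.76 and 4.98 in null MEFs, not well above background, against 10.42 and 9.94 in WT MEFs, at least 39.8-fold lower. A second array name for this RNA differed by -7.36 ± 0.47. Of 8 Y-linked genes, 7 were not tested, being near background in every group, and Sry was not called (-0.03). Without the genes of the X and Y chromosomes, an alternative chosen after the data were seen, 8426 genes were called in place of 8746.

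Called genes were not spread evenly over chromosomes. On chromosome 18, 45.7% of 440 tested genes were lower in null MEFs and 7.27% higher, with a median difference of -0.40. On chromosome 12, 36.9% of 609 were lower and 11.0% higher, with a median of -0.24. The medians of the other autosomes lay between -0.02 on chromosome 5 and 0.17 on chromosome 19, and that of the X chromosome was 0.17. The shift was there on each slide, -0.37 and -0.42 for chromosome 18 and -0.25 and -0.27 for chromosome 12, and on the separate arrays of co-cultured MEFs, at -0.39 and -0.26. Of the lower genes named above, Hspa2, Pdia6, Ltbp2, Tgfb3, Fbln5, Dlk1 and Rrm2 lie on chromosome 12. Hspa9, Lox, Fbn2, Smad7, Pdgfrb and Kif20a lie on chromosome 18. The copy number of these chromosomes was not measured.

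**Figure D5:**
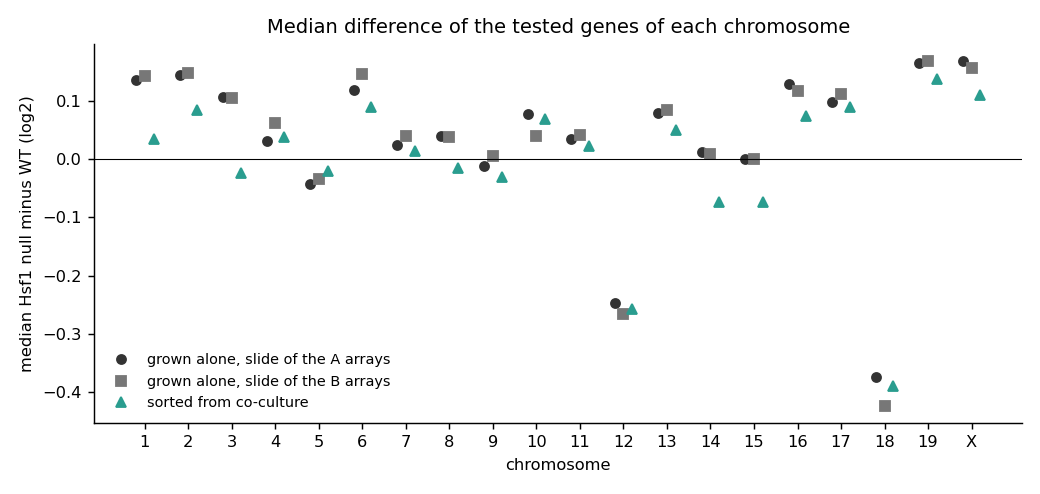
Median null minus WT difference (vertical axis, log2) of the tested genes on each chromosome (horizontal axis), for the A arrays (circles) and B arrays (squares) of MEFs grown alone and for MEFs sorted from co-culture (triangles). Chromosomes 12 and 18 lie apart at about -0.25 and -0.40 in all 3, and the other chromosomes lie between -0.07 and 0.17.

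The same contrast was then read on the 4 arrays of MEFs sorted after co-culture with D2A1 cells, which share no array with the first. Both contrasts come from the same fit and use the same variance for each gene, such as an SE of 0.12 for Hsf1 in each. Their calls are therefore not fully separate. In co-culture, 7641 of 25896 genes (29.5%) were called, 3819 (14.7%) higher and 3822 (14.8%) lower in null MEFs. Of the 4633 genes higher in null MEFs alone, 3022 (65.2%, and 79.1% of those higher in co-culture) were higher again and 97 were lower. Of the 4113 lower genes, 2883 (70.1%, and 75.4% of those lower in co-culture) were lower again and 2 were higher. All 334 genes at least 8-fold lower alone were lower in co-culture, with a median of -2.74 in co-culture and -3.93 alone. Of the 197 genes at least 8-fold higher alone, 186 were higher in co-culture and 6 were lower, with a median of 3.32 in co-culture and 3.64 alone. Across genes the 2 differences correlated at 0.872 with a slope of 0.723, which describes genes and not replicates.

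Sorted fibroblasts also held RNA of tumor-typical genes. Genes at least 5 log2 units higher in tumor cells than in either kind of MEF alone numbered 46. Both tumor cells grown alone and tumor cells grown with WT MEFs had to pass. Their median level was taken as a percentage of that in tumor cells grown with WT MEFs. It was 10.3% and 11.1% in co-cultured null MEFs and 39.2% and 42.6% in co-cultured WT MEFs. In MEFs grown alone it was 0.759% to 0.852%, which is low by the choice of these genes. Whether co-culture raised them in the fibroblasts themselves was not tested. The 2 kinds of co-cultured MEFs thus differed in this measure, and its part in the smaller differences seen in co-culture was not tested. For some genes that fell strongly, arrays A and B of co-cultured null MEFs were also unlike. Thy1 had 10.48 and 5.61 there and Vat1l 9.94 and 5.12, with means of 5.36 and 4.69 in tumor cells grown alone. Cxcl12 was alike on both, at 12.78 and 12.63. The part of this spread between arrays in the co-culture differences was not tested either.

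Between co-culture and growth alone, the genotype difference itself differed for 784 genes (3.03%), upward for 276 (1.07%) and downward for 508 (1.96%). This count was 328 on scanner signals scaled to the 75th percentile. It was 409 to 492 without any 1 array of MEFs grown alone or of co-cultured WT MEFs, and 643 without array A and 1031 without array B of co-cultured null MEFs. Cyb561 had 11.98 and 12.05 in null MEFs and 6.26 and 6.72 in WT MEFs alone, whereas in co-culture null MEFs had 12.52 and 13.002 and WT MEFs 13.19 and 13.32. In tumor cells grown alone this gene averaged 12.21. Mmp3, higher in null MEFs alone, was lower in them in co-culture, with 10.68 and 10.65 in null MEFs and 12.22 and 12.33 in WT MEFs. For the interferon-stimulated list, the direction held: 38 of the 39 members higher alone were higher in co-culture, where the list median was 2.64.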

How the data were processed

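The 14 arrays are 1-colour Agilent arrays, 2 for each of 7 groups. Per the labels' protocols, 0.5 µg of RNA was labelled with Cy3. Scanner intensities come, per the file headers, from Agilent's Feature Extraction 10.1.1.1, whereas the submitters' processing notes name version 9.1. The deposited table holds log2 values, 1 per array for 36413 gene names and 140 control rows, and the scaling the authors used is not given in the sources used here. Its columns correlated at 0.977 to 0.982 with the log2 scanner intensities of the 4 arrays compared. Probe names and mm9 positions come from the file headers and spot rows, and 23707 names matched RefSeq, 2907 of them under another current symbol. On the array, 10299 genes have several probes, for which the table gives a single value. The scanner files of 2 tumor cell arrays had over 20% outlier spots, so alternatives on scanner intensities used the other 12.

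Genes well above background on both arrays of at least 1 group, by the scanner flags, were tested with limma 3.58.1 (R 4.3.3): lmFit with 7 group means over all 14 arrays, contrasts, and eBayes (7 residual and 3.29 prior degrees of freedom). P-values were adjusted by Benjamini-Hochberg over 25896 genes, with a threshold of 0.05. The fitting was tested on simulated data. A gene not well above background on both arrays of 1 group has a bound only, computed from the lowest signal among probes well above background on each array or its own, whichever is higher, and given as "at least N-fold". The fixed genes, the 15 genes with the greatest difference in each direction above background on all 4 arrays, the 5 with the highest bound in each direction, up to 4 members per list and direction with the smallest p, and the 5 smallest p of the co-culture test in each direction were named by rule. Other list members were named after their values were seen. The comparison, its lists and its rules were chosen with earlier results of these data known. Arrays of 1 replicate letter shared a slide, and deviations from group means correlated between groups at 0.092 to 0.599 over 21 pairs of groups, so the slide was also used as a replicate block. Other alternatives were the arrays fitted, scanner intensities scaled to the 75th percentile or by normexp and quantile, other filters and leaving out each array. Promoter windows were searched with Python 3.11.15. A few genes that the naming rule covers are not reported here.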

Additional observations from a re-analysis of the deposited data

Results flagged for a closer look

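The genotype difference was compared between co-culture and growth alone by the interaction contrast of the same fit, and 784 genes passed. Values below are the co-culture difference minus the difference alone. RNA of tumor-typical genes stood at medians of 10.3% and 11.1% of the tumor level in co-cultured null MEFs. It stood at 39.2% and 42.6% in co-cultured WT MEFs, so each gene's mean in tumor cells grown alone is given beside it. The part of that RNA in these values was not tested.

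Downward values, in which null MEFs were relatively lower in co-culture, included Cyb561 (-6.02, tumor cells 12.21), 1190003J15Rik (-4.53, tumor cells 11.02), LOC100042220 (-4.20, tumor cells 17.94), Gm4072 (-4.13, tumor cells 16.84) and Ica1 (-3.64, tumor cells 10.495). The protease genes Mmp10 (-3.53, tumor cells 13.27) and Mmp3 (-3.32, tumor cells 10.33) and the keratin gene Krt8 (-2.33, tumor cells 8.44) moved the same way. Lum (-2.29) did so too, with 5.07 in tumor cells. It had 7.42 and 7.67 in co-cultured null MEFs, against 9.03 and 8.87 in co-cultured WT MEFs.

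Upward values, in which the deficit of null MEFs was smaller in co-culture, included Col4a5 (5.57, tumor cells 11.66), Cyp1b1 (5.10, tumor cells 10.34), Tbx3 (3.31, tumor cells 12.27), Nr2f1 (2.87, tumor cells 11.79) and Ccnd1 (2.40, tumor cells 15.61). Cyp1b1 had 5.61 and 5.79 in null MEFs alone, against 12.18 and 11.74 in WT MEFs alone, and 10.88 and 10.65 in co-cultured null MEFs, against 12.01 and 11.86 in co-cultured WT MEFs.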

How the results depend on the processing

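The number of genes called between null and WT MEFs grown alone lay between 6557 and 9940 under every alternative run, against 8746, with 6557 to 6773 when 1 of the 4 arrays was left out. With the slide as a replicate block it was 9940, and the blocked counts for co-cultured MEFs and for the difference between both conditions were 8906 and 1052, against 7641 and 784. The block moved none of these counts by over 1.5 times. The genes whose genotype difference differed between co-culture and growth alone numbered 328 on scanner intensities scaled to the 75th percentile, and 409 to 1031 when 1 array was left out, the lowest without array B of co-cultured WT MEFs. Of 224 named genes that were called, 180 were tested under all 15 alternatives, and 152 of these kept their call in each. The other 44 were left out by a filter in at least 1 alternative, and 41 of them kept their call wherever tested. Tgfb2, not called, changed sign to 0.057 on scanner intensities scaled to the 75th percentile. With 2 arrays per group and a left-out array, the lone array was assumed to vary like the other groups. For genes at background in 1 group, the array gives a bound and not a difference.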
